A study of Danio rerio with 5 samples.

Results

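The receptor tyrosine kinase genes alk and ltk and the growth factor genes mdka, mdkb and ptn make up the alk, ltk and midkine family. They were chosen by symbol, without use of their levels, and all 5 were among the 30647 gene names measured. A single member, mdkb, reached 1 RPKM (reads mapped to a gene, scaled by its exon length and by the reads mapped in the library) in at least 2 libraries, the level required of the 13484 genes tested. The other 4 were among 11975 genes with a count that lay under that level, and their values come from the same model fitted to every one of the 25459 genes that had a count.

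ALK and LTK are closely related receptors on the cell surface that are activated by small secreted ligands, the ALKAL proteins, and pass the signal to the RAS-MAPK and PI3K-AKT cascades. ALK is expressed in the developing sympathetic nervous system and is the receptor gene most often mutated in human neuroblastoma, whereas zebrafish ltk is known from the pigment cell mutant shady, which lacks iridophores. Midkine and pleiotrophin, the product of ptn, are secreted growth factors that bind heparin and are abundant in developing nervous tissue. Mdka and mdkb are the zebrafish copies of midkine, and midkine is produced in large amounts by many human tumors, neuroblastoma among them.

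RNA-Seq was performed on EGFP+ cells sorted from neuroblastomas of juvenile zebrafish of the AB strain, in 3 lmo1-/- libraries and 2 TATA/TATA libraries. All fish carried Tg(dβh:MYCN; dβh:EGFP), in which the dβh promoter drives human MYCN and the fluorescent marker in noradrenergic cells, so no library comes from tissue without the MYCN transgene. The lmo1-/- line has a deletion in exon 2 of lmo1 made with CRISPR-Cas9, with a premature stop codon, and is a single mutant line. The TATA/TATA fish carry a GATA-to-TATA change in the first intron of lmo1, knocked in with TALENs and an oligonucleotide that also replaced TT by CC beside it. GATA/GATA tumors, which have the unchanged intron, are not analysed here, so neither group is a wild-type control. The labels do not say whether a library is 1 tumor or a pool, nor the age of each tumor, and the p-values measure the spread between these libraries.

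Each library had 48144549 to 55782865 reads counted on genes. The lmo1-/- libraries stood farther from each other (chi-square per degree of freedom of 105 to 131 between 2 libraries) than the TATA/TATA libraries did (8.77), and no 2 libraries agreed within counting error. Lmo1 itself was at 24.6, 21.0 and 41.9 RPKM in the lmo1-/- libraries and at 13.6 and 12.7 RPKM in the TATA/TATA libraries, which counts the mutant transcript over all its exons and so does not check the deletion. The sympathoadrenal marker dbh was at 514 to 688 RPKM in lmo1-/- libraries and at 369 to 419 RPKM in TATA/TATA libraries. All fold changes are lmo1-/- over TATA/TATA from edgeR's quasi-likelihood test with TMM scaling, and adjusted p means its Benjamini-Hochberg adjusted p, with a threshold of 0.05. At that threshold 36.6% of the genes tested passed, with 2255 genes higher in lmo1-/- tumors and 2678 lower, so that 45.7% of the calls were higher. With the library totals behind the authors' RPKM in place of TMM, the genes tested had a median log2 fold change of −0.41 in place of 0.05, and 17.8% of the calls were higher in lmo1-/- tumors.

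**Figure D1:**
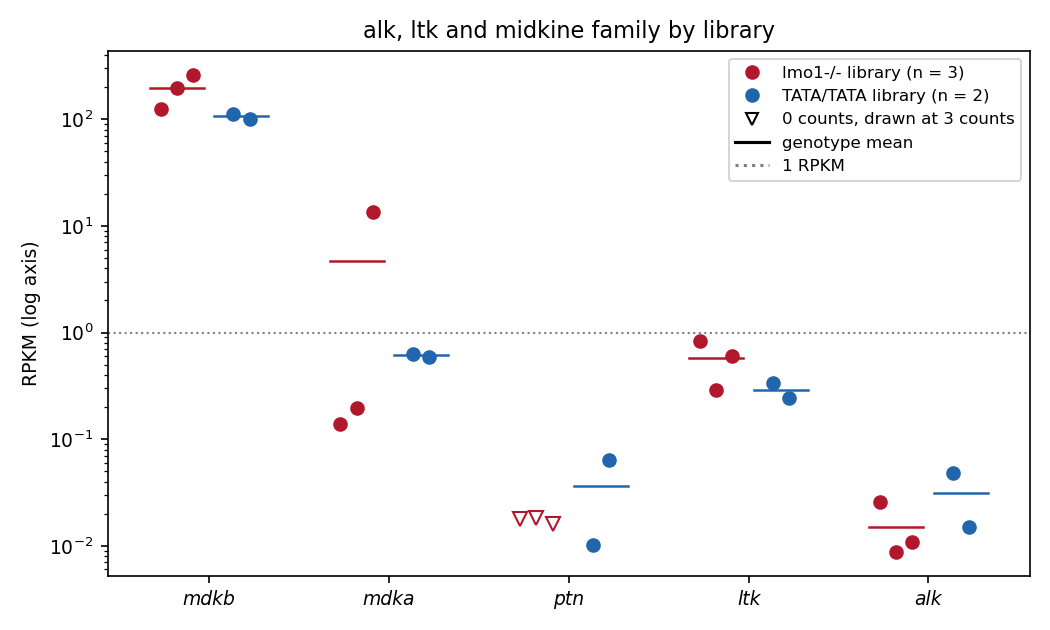
RPKM (log axis) of the 5 family members in each lmo1-/- library (red, n = 3) and each TATA/TATA library (blue, n = 2), with genotype means as bars. Open triangles stand at 3 counts for libraries without a count, and the dotted line marks 1 RPKM. Mdkb lies above 100 RPKM in all 5 libraries, mdka is above 1 RPKM in lmo1-/- replicate 3 only, and ltk, alk and ptn lie under 1 RPKM in all 5 libraries.

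Mdkb was by far the most highly expressed member and was higher in lmo1-/- tumors. It was at 125, 197 and 262 RPKM in the lmo1-/- libraries and at 112 and 101 RPKM in the TATA/TATA libraries. The lowest lmo1-/- library lay above the highest TATA/TATA library, although by little, and the lmo1-/- libraries spread far more. Mdkb averaged 195 ± 68.4 RPKM in lmo1-/- tumors (SD, n = 3), against 106 ± 7.60 RPKM in TATA/TATA tumors (SD, n = 2). In edgeR's quasi-likelihood test mdkb was higher, at a log2 fold change of 1.33 ± 0.30 (SE), with an adjusted p = 0.0178. Among the genes tested, 16.7% were called higher in lmo1-/- tumors, and in 14.1% every lmo1-/- library lay above both TATA/TATA libraries in RPKM, as for mdkb (19.9% were called lower, 54.2% lay lower without overlap, and 68.3% did not overlap in one direction or the other).

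The level of mdkb placed it at percentile 98.4 of the genes tested in lmo1-/- tumors and at percentile 96.7 in TATA/TATA tumors. The counts behind it were 9094, 13886 and 21017 in the lmo1-/- libraries and 9518 and 8243 in the TATA/TATA libraries, so counting error is small beside the spread between libraries. In a bulk sample, more cells that express a gene and more RNA of it per cell cannot be told apart.

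The call for mdkb depended on how the libraries were scaled and on single libraries. With the authors' library totals the log2 fold change was 0.88 (edgeR adjusted p = 0.0718) and on log2(RPKM + 0.1) it was 0.81 (limma adjusted p = 0.0699), neither past the threshold. Mdkb also fell short of the threshold without lmo1-/- replicate 2 (1.22, edgeR adjusted p = 0.0533). Without TATA/TATA replicate 1 or 2 its log2 fold change was 1.27 or 1.15, beside 1.33 with all libraries. It did not pass in those fits either, but far fewer of all genes passed in them, so the miss is not particular to mdkb.

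Ratios of mdkb to markers of the sorted cells within a library do not depend on scaling, and they differed with the marker used. The ratio of mdkb to dbh, which encodes the last enzyme of noradrenaline synthesis, was 0.230, 0.384 and 0.381 in the lmo1-/- libraries and 0.267 and 0.274 in the TATA/TATA libraries. The ratio of mdkb to th, the first enzyme of that pathway, was 0.208, 0.361 and 0.297 in the lmo1-/- libraries and 0.240 and 0.222 in the TATA/TATA libraries. In both ratios lmo1-/- replicate 1 lay below the TATA/TATA libraries and the other 2 lmo1-/- libraries above them. Against the median level of the 12 sympathoadrenal markers, mdkb was 4.46, 8.06 and 6.06 times as high in the lmo1-/- libraries and 3.81 and 3.57 times as high in the TATA/TATA libraries, without overlap. Dbh and th were themselves higher in lmo1-/- tumors, by log2 fold changes of 1.02 (edgeR adjusted p = 0.00472) and 1.00 (edgeR adjusted p = 0.00868).

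Markers of some other cell types moved with genotype in the same libraries, and the sums of others overlapped. Over all genes tested, 16.7% were called higher in lmo1-/- tumors and 19.9% were called lower. Of 12 macrophage markers, 11 were lower in lmo1-/- tumors and none was higher, and their summed level was 105 to 187 RPKM in lmo1-/- libraries and 2685 to 2803 RPKM in TATA/TATA libraries. None of the 12 was at 0 in every library, and cd74a, which helps load antigens, was the most abundant at 54.5 to 76.7 RPKM in lmo1-/- libraries and 1300 to 1331 RPKM in TATA/TATA libraries. Of the 11 tested sympathoadrenal markers, 5 were higher, 1 was lower and 5 did not pass, with a summed level of 1667 to 2421 RPKM in lmo1-/- libraries and 1367 to 1453 RPKM in TATA/TATA libraries. Both tested glial markers, erbb3b (−7.14) and egr2b (−8.25), were lower, and the 9 of the list summed to 0.532 to 0.694 RPKM in lmo1-/- libraries and 4.31 to 5.53 RPKM in TATA/TATA libraries. Both markers reached 1 RPKM in TATA/TATA libraries only and so entered the test through the genotype where they were high, which set their direction. The other 7 lay under the required level, among them sox10 and foxd3, which define these cells and were at 0 to 0.0142 RPKM in lmo1-/- libraries and at 0.00715 to 0.0562 RPKM in TATA/TATA libraries, and mpz, which passed as higher with TMM (1.21, edgeR adjusted p = 0.0458) but not with median-ratio scaling (1.18, edgeR adjusted p = 0.0513).

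Neutrophil markers (4 of 6 tested lower, none higher) summed to 17.2 to 98.0 RPKM in lmo1-/- libraries and 142 to 147 RPKM in TATA/TATA libraries, and lymphoid markers (3 of 4 tested lower, none higher) to 2.54 to 3.17 RPKM in lmo1-/- libraries and 15.7 to 19.3 RPKM in TATA/TATA libraries. Of those called lower, mpx, csf3r, lck, cd4-1 and zap70 reached 1 RPKM in TATA/TATA libraries only, so the filter favoured that direction. The erythroid and interrenal lists had higher sums in every lmo1-/- library than in either TATA/TATA library. Erythroid markers (3 of 4 tested higher, none lower) summed to 46.5 to 57.1 RPKM in lmo1-/- libraries and 30.9 to 32.9 RPKM in TATA/TATA libraries. Among them, hbaa2 reached 1 RPKM in lmo1-/- libraries only. Gata1a, of that list but under the required level, went the other way (−3.54, edgeR adjusted p = 0.0496). It was at 0.159, 0.00745 and 0.00654 RPKM in the lmo1-/- libraries and at 1.05 and 0.860 RPKM in the TATA/TATA libraries. Interrenal markers (1 of 5 tested higher, none lower) summed to 25.8 to 61.8 RPKM in lmo1-/- libraries and 16.4 to 19.7 RPKM in TATA/TATA libraries. That count is near the 16.7% called higher over all genes tested. The tested gene that passed was star, which brings cholesterol to steroid synthesis (1.99, edgeR adjusted p = 0.0165). Star did not pass without lmo1-/- replicate 2 (1.80, edgeR adjusted p = 0.0542). Nor did star pass without TATA/TATA replicate 1 (1.76) or 2 (1.99), where far fewer of all genes passed. Melanophore, xanthophore and kidney tubule sums overlapped between genotypes. Those were 27.4 to 69.8, 52.9 to 201 and 0.234 to 1.06 RPKM in lmo1-/- libraries. In TATA/TATA libraries they were 40.3 to 40.6, 98.4 to 105 and 0.857 to 0.958 RPKM. Fibroblast sums were 3.57 to 8.66 RPKM in lmo1-/- libraries and 9.29 to 9.88 RPKM in TATA/TATA libraries. Endothelial sums, mostly tie1 in TATA/TATA libraries, were 0.256 to 0.669 and 2.95 to 3.35 RPKM in the same order. The part of cell composition in the family's differences was not tested.

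The genes whose pattern over the 5 libraries was nearest to that of mdkb were tmem121a, siva1 and efna2b, among 13483 compared. Their root mean square differences from mdkb in centred log2 CPM (counts scaled to the library size) were 0.05, 0.06 and 0.06. Siva1, known in mammals as a regulator of apoptosis, was at 17.6, 26.9 and 33.8 RPKM in the lmo1-/- libraries and at 14.5 and 12.4 RPKM in the TATA/TATA libraries. Efna2b, a ligand of Eph receptors, was at 4.21, 7.11 and 9.92 RPKM in the lmo1-/- libraries and at 3.98 and 3.83 RPKM in the TATA/TATA libraries. Like mdkb, both were highest in lmo1-/- replicate 3 and lowest among lmo1-/- libraries in replicate 1. That order follows from choosing them by pattern.

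Mdka, the other midkine copy, was set apart by 1 library. It was at 0.138, 0.197 and 13.6 RPKM in the lmo1-/- libraries and at 0.632 and 0.589 RPKM in the TATA/TATA libraries. This corresponds to 26, 36 and 2841 counts in the lmo1-/- libraries, against 140 and 125 counts in the TATA/TATA libraries. Lmo1-/- replicate 3 lay far above the other 4 libraries, whereas lmo1-/- replicates 1 and 2 lay below both TATA/TATA libraries, so the genotypes overlapped. The log2 fold change was 3.27 (SE 1.76, edgeR adjusted p = 0.220) and did not pass the threshold. Without lmo1-/- replicate 3 it was −1.30 (SE 0.44, edgeR adjusted p = 0.0625), of the opposite sign and again not past it. Its mean in lmo1-/- tumors, 4.66 ± 7.78 RPKM (SD, n = 3), against 0.611 ± 0.0305 RPKM in TATA/TATA tumors (SD, n = 2), was therefore close to no lmo1-/- library.

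In lmo1-/- replicate 3 mdka exceeded the next library by 4.23 on the scale of log2(RPKM + 0.1). Of 14203 genes with at least 1 RPKM in any library, 8 stood at least that far above all other libraries in lmo1-/- replicate 3, mdka included. The other libraries had 0 or 1 such gene each. These counts do not compare the libraries fairly, since the cut-off was taken from mdka in lmo1-/- replicate 3. The 2 TATA/TATA libraries also lay close to each other (chi-square per degree of freedom of 8.77), which leaves little room for either to stand apart. The share of mdka in the summed RPKM of the 5 members was 0.109%, 0.0996% and 4.94% in the lmo1-/- libraries and 0.561% and 0.579% in the TATA/TATA libraries. Mdkb was 909, 1002 and 19.2 times as high as mdka per exon length in the lmo1-/- libraries and 177 and 171 times as high in the TATA/TATA libraries. Mdkb thus remained the main midkine copy in lmo1-/- replicate 3, where it was also highest, and held at least 94.8% of the family's RPKM in every library.

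**Figure D2:**
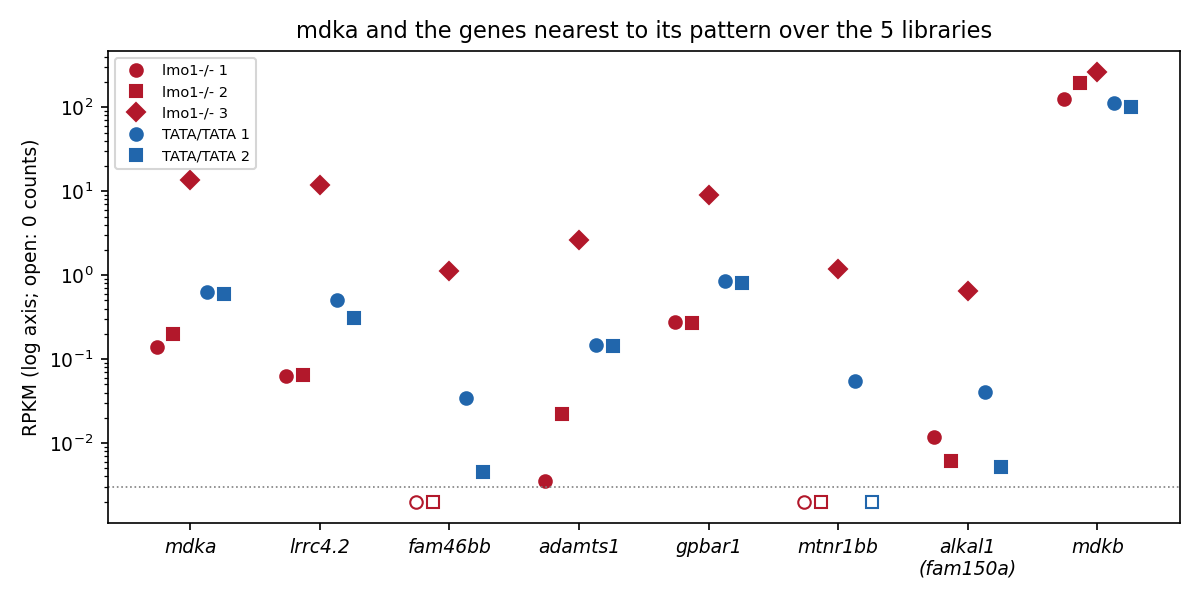
RPKM (log axis) in each lmo1-/- library (red) and TATA/TATA library (blue) of mdka, the 5 genes with the nearest pattern over the libraries, the ligand gene alkal1 and, for comparison, mdkb. Open symbols below the dotted line mark 0 counts. Lmo1-/- replicate 3 (diamonds) is the highest library for each gene, by a wide margin for all but mdkb, which is at 262 RPKM there and at 101 to 197 RPKM in the other 4 libraries.

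The 5 genes nearest to mdka in pattern were chosen after its values were seen. Lrrc4.2, a leucine-rich repeat gene, came first, at 0.0625, 0.0644 and 12.0 RPKM in the lmo1-/- libraries and at 0.505 and 0.305 RPKM in the TATA/TATA libraries. Fam46bb, adamts1, which encodes a secreted protease, gpbar1, a bile acid receptor, and mtnr1bb, a melatonin receptor, followed. Gpbar1 was at 0.278, 0.273 and 8.91 RPKM in the lmo1-/- libraries and at 0.852 and 0.815 RPKM in the TATA/TATA libraries. The root mean square differences of the 5 genes from mdka were 0.38 to 0.61 on the log2 scale, wider than those of the genes nearest to mdkb. Insm1b, a transcription factor gene of the sympathoadrenal list, was likewise high in that library, at 0.0686, 0.00707 and 7.61 RPKM in the lmo1-/- libraries and at 0.409 and 0.238 RPKM in the TATA/TATA libraries.

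Ptn was close to absent. It had 0 counts in all 3 lmo1-/- libraries, against 2 and 12 counts in the TATA/TATA libraries, or 0.0101 and 0.0634 RPKM. A count of 0 allows up to 3 counts, here 0.0161 to 0.0184 RPKM in the lmo1-/- libraries, and TATA/TATA replicate 1 lay under its own floor of 0.0152 RPKM. The TATA/TATA mean of 0.0368 RPKM was 2.1 times the mean of the lmo1-/- floors, which rests on the 12 counts of TATA/TATA replicate 2. It is not a lower bound, since the TATA/TATA mean is given no error. At a confidence level of 0.95, 2-sided Poisson intervals began at 0.00123 and 0.0328 RPKM in the TATA/TATA libraries. Those of the lmo1-/- libraries ended at 0.0199 to 0.0226 RPKM. The difference did not pass the threshold (edgeR unadjusted p = 0.0399, adjusted p = 0.114). Since those floors lie above TATA/TATA replicate 1, the libraries are not shown to be free of overlap. These intervals and floors cover counting error only.

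Among the receptors, ltk was expressed at a low level and its libraries overlapped. It was at 0.834, 0.292 and 0.602 RPKM in the lmo1-/- libraries and at 0.333 and 0.243 RPKM in the TATA/TATA libraries, with 86 to 262 counts. Lmo1-/- replicate 2 lay between the TATA/TATA libraries, and the other 2 lmo1-/- libraries lay above both. Ltk averaged 0.576 ± 0.272 RPKM in lmo1-/- tumors (SD, n = 3), against 0.288 ± 0.0637 RPKM in TATA/TATA tumors (SD, n = 2). Its log2 fold change of 1.47 (SE 0.47, edgeR adjusted p = 0.0550) narrowly missed the threshold, which 14.8% of the genes under the required level and 25.4% of all genes with a count passed. It passed with DESeq2 (1.43, adjusted p = 0.0123) and without lmo1-/- replicate 2 (1.74, edgeR adjusted p = 0.0279), and the authors' library totals gave 1.00 (edgeR adjusted p = 0.192).

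Because ltk specifies iridophores in zebrafish, the level of iridophore markers is given beside it. The 5 markers summed to 1.15, 0.996 and 1.70 RPKM in the lmo1-/- libraries and to 2.60 and 3.16 RPKM in the TATA/TATA libraries, but did not move as one. Pnp4a, a purine synthesis gene that marks these cells, was at 0.995, 0.858 and 1.56 RPKM in the lmo1-/- libraries and at 0.438 and 0.663 RPKM in the TATA/TATA libraries, higher by 1.51 on the log2 scale (edgeR adjusted p = 0.0324) but not past the threshold with the authors' totals (1.05, edgeR adjusted p = 0.141). Tfec, a transcription factor of the same cells that macrophages also use, was lower, at 0.0915 to 0.126 RPKM in lmo1-/- libraries and at 1.94 and 2.32 RPKM in TATA/TATA libraries. Alx4b was also lower, at 0.00744, 0.0461 and 0.0135 RPKM in the lmo1-/- libraries and at 0.209 and 0.179 RPKM in the TATA/TATA libraries. Its difference did not pass the threshold (−2.55, edgeR adjusted p = 0.0903). Alx4a and ednrba were at 0 or under 0.04 RPKM in all 5 libraries, so they offer little signal in the sorted cells. The part of iridophores in the ltk values was not tested.

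Alk was close to the limit of detection in every library. It was at 0.0256, 0.00879 and 0.0108 RPKM in the lmo1-/- libraries and at 0.0479 and 0.0151 RPKM in the TATA/TATA libraries, which is 15, 5 and 7 counts against 33 and 10 counts. TATA/TATA replicate 1 was highest, and TATA/TATA replicate 2 lay within the range of the lmo1-/- libraries. The log2 fold change of −0.56 (SE 0.87, edgeR adjusted p = 0.654) did not pass the threshold, and without TATA/TATA replicate 1 it was 0.47 (SE 1.49, edgeR adjusted p = 0.877). A difference in alk between the genotypes was not detectable at this depth and with this spread between the TATA/TATA libraries.

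Per exon length, ltk was higher than alk in every library. The ratio of ltk to alk was 32.6, 33.2 and 55.7 in the lmo1-/- libraries and 6.96 and 16.1 in the TATA/TATA libraries, with all lmo1-/- libraries above both TATA/TATA libraries. The ratio rests on 5 to 33 alk counts per library, so its separation is not shown to exceed counting error. The Poisson interval of alk was 0.00285 to 0.0205 RPKM in lmo1-/- replicate 2. In TATA/TATA replicate 2 it was 0.00726 to 0.0278 RPKM. Among 49 receptor tyrosine kinase genes with a count, ranked by mean RPKM, ltk was 14th in lmo1-/- tumors and 23rd in TATA/TATA tumors. Alk was 34th in lmo1-/- tumors and 38th in TATA/TATA tumors. The receptor at the head of the order was insra, an insulin receptor, in lmo1-/- tumors (3.90 RPKM) and csf1ra, the colony-stimulating factor receptor of macrophages, in TATA/TATA tumors (30.9 RPKM).

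**Figure D3:**
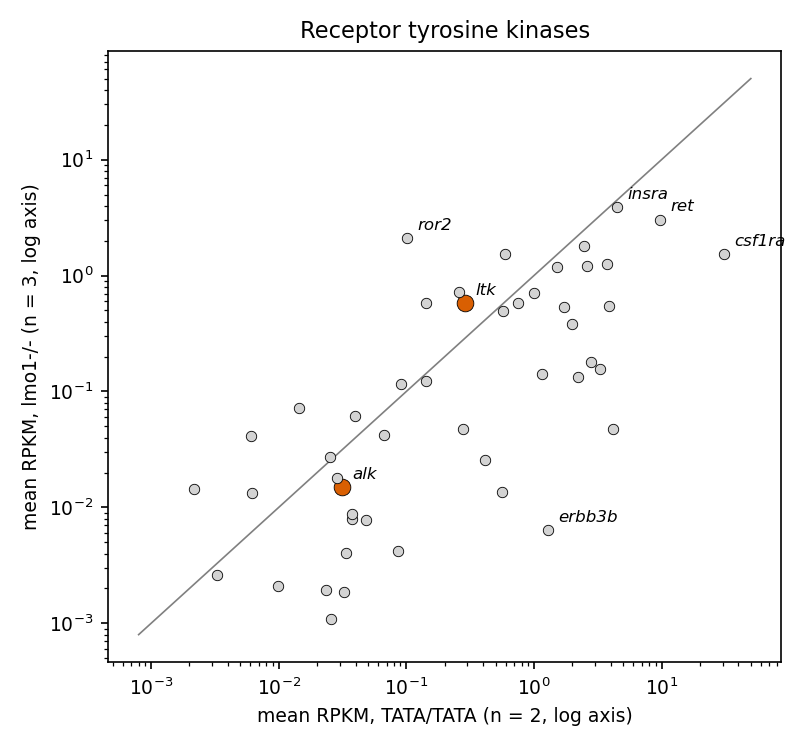
Mean RPKM in lmo1-/- tumors (vertical, n = 3) against TATA/TATA tumors (horizontal, n = 2) of the 48 receptor tyrosine kinase genes with a count in both genotypes, on log axes, with the line of equal levels. Alk and ltk are in orange. Ltk lies above the line (0.576 against 0.288 RPKM), alk lies low on both axes, and 36 of the 48 genes lie below the line. RPKM is not scaled by TMM, and most genes shift the same way on it. Over all genes tested, the median log2 fold change on log2(RPKM + 0.1) was −0.43. Of those genes, 54.2% lay lower in lmo1-/- tumors without overlap in RPKM and 14.1% lay higher. These shares require all libraries to separate, and cover genes tested only. They are therefore not the share to set beside the 36 genes, which have a lower mean.

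Ret, the receptor of GDNF family ligands in sympathetic neurons, was second in both orders. It was at 2.1, 2.16 and 4.85 RPKM in the lmo1-/- libraries and at 10.03 and 9.25 RPKM in the TATA/TATA libraries, a log2 fold change of −1.25 (SE 0.32 and edgeR adjusted p = 0.0268). Of the 53 receptor tyrosine kinases listed, 49 were in the files with a count and 18 were tested, of which 2 were higher in lmo1-/- tumors, 10 were lower and 6 did not pass. The list's median log2 fold change was −1.59, whereas over all genes tested 16.7% were higher, 19.9% were lower and the median was 0.05. Those higher were ror2, a Wnt receptor, with a log2 fold change of 4.75 (edgeR adjusted p = 0.00194), and the neurotrophin receptor ntrk2b, with 1.81 (edgeR adjusted p = 0.0136). Those lower by the most were erbb3b (−7.14), known in zebrafish Schwann cells, the collagen receptor ddr2b (−6.00), and flt3 and csf1ra (both −3.92), receptors of blood cells. Neither alk nor ltk reached the level required for the list's count. Erbb3b, ddr2b, flt3, tie1, mertka, csf1rb, ddr1 and fgfr1a, all called lower, reached 1 RPKM in TATA/TATA libraries only. Ror2 and ntrk2b, called higher, did so in lmo1-/- libraries only. These genes entered the test through the genotype where they were high, so the split and the median rest partly on that filter. Without TATA/TATA replicate 1 or 2, 9 of the listed genes could be tested, with a median log2 fold change of −0.14 or −0.11.

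The ligands of alk and ltk were as scarce as alk itself, apart from 1 library. Alkal1, listed as fam150a, was at 0.0118, 0.00608 and 0.656 RPKM in the lmo1-/- libraries and at 0.0401 and 0.00523 RPKM in the TATA/TATA libraries, with 123 of its counts in lmo1-/- replicate 3 and 1 to 8 in each other library. The library that stood apart was the one in which mdka was high, and without it the log2 fold change was −0.77 in place of 3.61 (edgeR adjusted p = 0.739 and 0.210). Alkal2a, listed as fam150ba, had 3 counts in lmo1-/- replicate 3 and 4 in TATA/TATA replicate 1, and alkal2b, listed as fam150bb, had 1 count, in TATA/TATA replicate 2. No ligand reached the level required for the test.

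The receptors of midkine and pleiotrophin moved in both directions. Of 18 listed, 16 were in the files and 11 were tested, of which 3 were higher in lmo1-/- tumors, 4 were lower and 4 did not pass, with a median log2 fold change of −0.50. Over all genes tested, 16.7% were higher, 19.9% were lower and the median was 0.05. Gpc2, called higher, reached 1 RPKM in lmo1-/- libraries only, and notch2 and itga4, called lower, in TATA/TATA libraries only. These calls rest partly on that filter. Ptprz1b, a copy of the receptor phosphatase that binds both growth factors in mammals, was at 4.16, 9.60 and 12.2 RPKM in the lmo1-/- libraries and at 2.16 and 2.04 RPKM in the TATA/TATA libraries. It was higher by a log2 fold change of 2.49 (SE 0.46, edgeR adjusted p = 0.00844), and its order over the lmo1-/- libraries was that of mdkb. Gpc2, a heparan sulfate proteoglycan of neurons that is found on human neuroblastoma cells, was at 10.2, 2.49 and 12.7 RPKM in the lmo1-/- libraries and at 0.114 and 0.104 RPKM in the TATA/TATA libraries. Its log2 fold change was 6.66 (SE 0.80, edgeR adjusted p = 0.00204), the highest of the list, and even its lowest lmo1-/- library stood far above both TATA/TATA libraries. Itgb1a, an integrin beta chain, passed with 0.77 (edgeR adjusted p = 0.0344) but not with the authors' totals (0.34, edgeR adjusted p = 0.400).

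Those lower in lmo1-/- tumors were notch2 (−4.12), the integrin alpha chains itga4 (−2.98) and itgav (−1.35), and the syndecan sdc4 (−2.16), with edgeR adjusted p of 0.00186 to 0.00391. Sdc4 was at 4.25, 5.26 and 6.82 RPKM in the lmo1-/- libraries and at 25.6 and 40.7 RPKM in the TATA/TATA libraries. The summed macrophage markers, at 105 to 187 RPKM in lmo1-/- libraries, against 2685 to 2803 RPKM in TATA/TATA libraries, were lower in the same libraries, and their part in these differences was not tested. Nucleolin, the product of ncl, binds midkine and was the most highly expressed gene of the list, at 410, 285 and 312 RPKM in the lmo1-/- libraries and at 481 and 454 RPKM in the TATA/TATA libraries. Its log2 fold change was −0.02 (SE 0.21, edgeR adjusted p = 0.962), and its sign varied with the setting. Without TATA/TATA replicate 1 or 2, 9 receptors could be tested, with a median log2 fold change of −0.14 or −0.16.

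**Figure D4:**
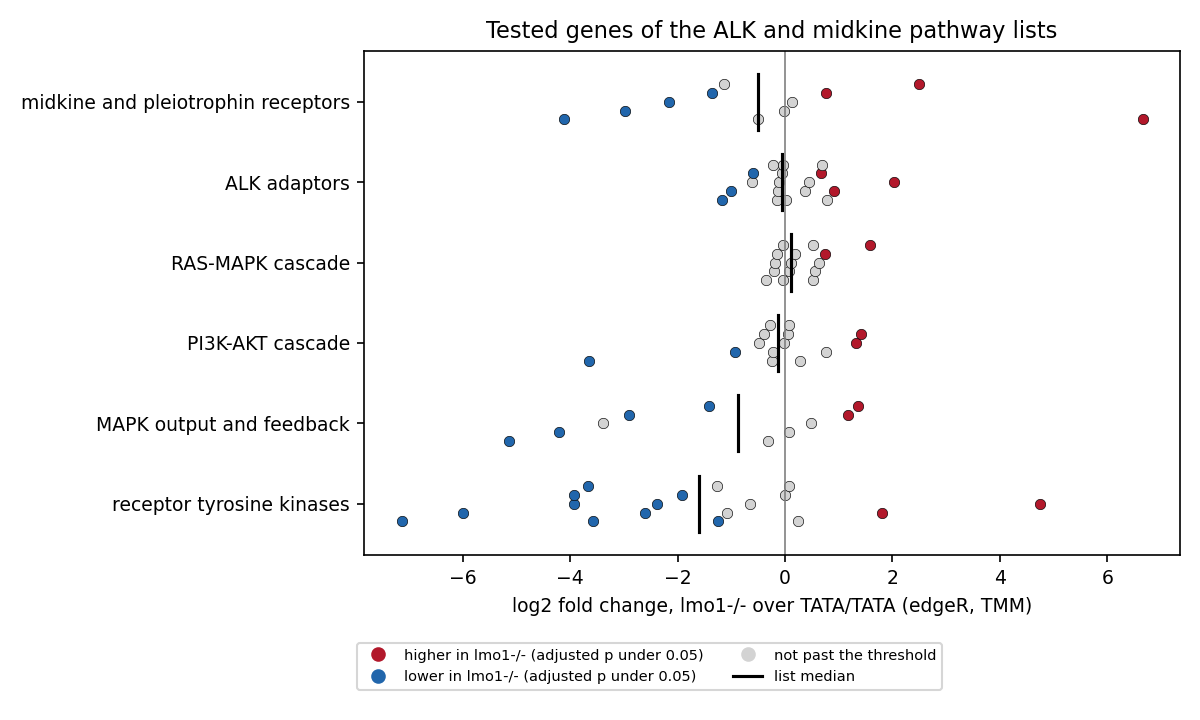
Log2 fold change, lmo1-/- over TATA/TATA (edgeR, TMM), of the tested genes of 6 lists around ALK, LTK and midkine, 1 point a gene, red where higher and blue where lower in lmo1-/- at an adjusted p under 0.05, with the list median as a black bar. Medians range from −1.59 for receptor tyrosine kinases to 0.11 for the RAS-MAPK cascade, and the points furthest out to the right are gpc2 (6.66) and ror2 (4.75). Genes that reached 1 RPKM in 1 genotype only are included, which shapes the medians.

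The adaptors that carry the signal from activated ALK moved in both directions. Of 21 listed, 18 were tested, of which 3 were higher in lmo1-/- tumors, 3 were lower and 12 did not pass, near the 36.6% called over all genes tested, with a median log2 fold change of −0.05 beside 0.05. Irs2b, an insulin receptor substrate, was highest of these, at 7.88, 11.2 and 18.2 RPKM in the lmo1-/- libraries and at 4.15 and 4.10 RPKM in the TATA/TATA libraries, a log2 fold change of 2.03 (SE 0.32, edgeR adjusted p = 0.00512). Crk (0.91) and gab1 (0.67) were the others higher, although gab1 missed the threshold with median-ratio scaling (0.65, edgeR adjusted p = 0.0502) and neither passed with the authors' totals. Shc1, an adaptor that binds the ALK kinase directly in mammals, was lower with a log2 fold change of −1.16 (edgeR adjusted p = 0.00361), beside rapgef1a (−0.998) and the phosphatase gene ptpn11b (−0.59). Grb2b, the most highly expressed, had −0.14 (edgeR adjusted p = 0.439).

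In the RAS-MAPK cascade, all 15 genes were tested, of which 2 were higher in lmo1-/- tumors, raf1a (1.59) among them, none was lower and 13 did not pass, beside 16.7% called higher and 19.9% called lower over all genes tested, with a median of 0.11 beside 0.05. With the authors' totals, 1 was higher and 2 were lower. Mapk3, the most highly expressed, was at 29.8, 20.5 and 19.7 RPKM in the lmo1-/- libraries and at 36.7 and 37.4 RPKM in the TATA/TATA libraries, a log2 fold change of −0.20 (edgeR adjusted p = 0.565). In the PI3K-AKT cascade, 14 genes were tested, of which 2 were higher, 2 were lower and 10 did not pass, near the 36.6% called over all genes tested, with a median of −0.12. The regulatory subunit gene pik3r3a (1.42) and akt3b (1.31) were higher, and the catalytic subunit gene pik3cb (−3.65) and ptenb (−0.93), a copy of the phosphatase that opposes the pathway, were lower. Akt2, the most highly expressed of that list, had −0.29 (edgeR adjusted p = 0.263). Raf1a reached 1 RPKM in lmo1-/- libraries only and pik3cb in TATA/TATA libraries only. Without TATA/TATA replicate 1 or 2, the median log2 fold change was −0.17 or −0.15 among the adaptors. It was −0.01 or 0.02 in the RAS-MAPK cascade and −0.09 or −0.19 in the PI3K-AKT cascade. Passing the threshold is not counted in these fits, where calls fell over all genes.

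Of the genes that MAPK signalling induces or that feed back on it, 19 were listed and 10 tested, of which 2 were higher in lmo1-/- tumors, 4 were lower and 4 did not pass, with a median log2 fold change of −0.87, beside 36.6% called and a median of 0.05 over all genes tested. The MAPK phosphatase gene dusp5 was at 0.189, 0.236 and 0.162 RPKM in the lmo1-/- libraries and at 6.04 and 13.1 RPKM in the TATA/TATA libraries (−5.14, edgeR adjusted p = 0.000820). Etv4, an ETS transcription factor, was at 0.370, 0.183 and 0.397 RPKM in the lmo1-/- libraries and at 7.87 and 8.03 RPKM in the TATA/TATA libraries (−4.21, edgeR adjusted p = 0.000445). Dusp4 (−2.90) and dusp6 (−1.41) were the others lower, whereas ccnd1, which encodes cyclin D1 (1.36), and the feedback inhibitor gene spry2 (1.18) were higher. Egr1, an immediate early gene and the most highly expressed of the list, was at 36.9, 1.12 and 1.92 RPKM in the lmo1-/- libraries and at 158 and 226 RPKM in the TATA/TATA libraries. The genotypes did not overlap for egr1, yet its log2 fold change of −3.40 (SE 1.44) did not pass (edgeR adjusted p = 0.117), and lmo1-/- replicate 1 lay far from the other 2. Dusp5, etv4 and dusp4 reached 1 RPKM in TATA/TATA libraries only, so they entered the test through the genotype where they were high. The number of genes lower and the median of −0.87 rest partly on that filter. Without lmo1-/- replicate 2, 3 of the 10 genes passed. Without TATA/TATA replicate 1 or 2, 7 genes could be tested, with a median log2 fold change of 0.09 or −0.16.

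**Figure D5:**
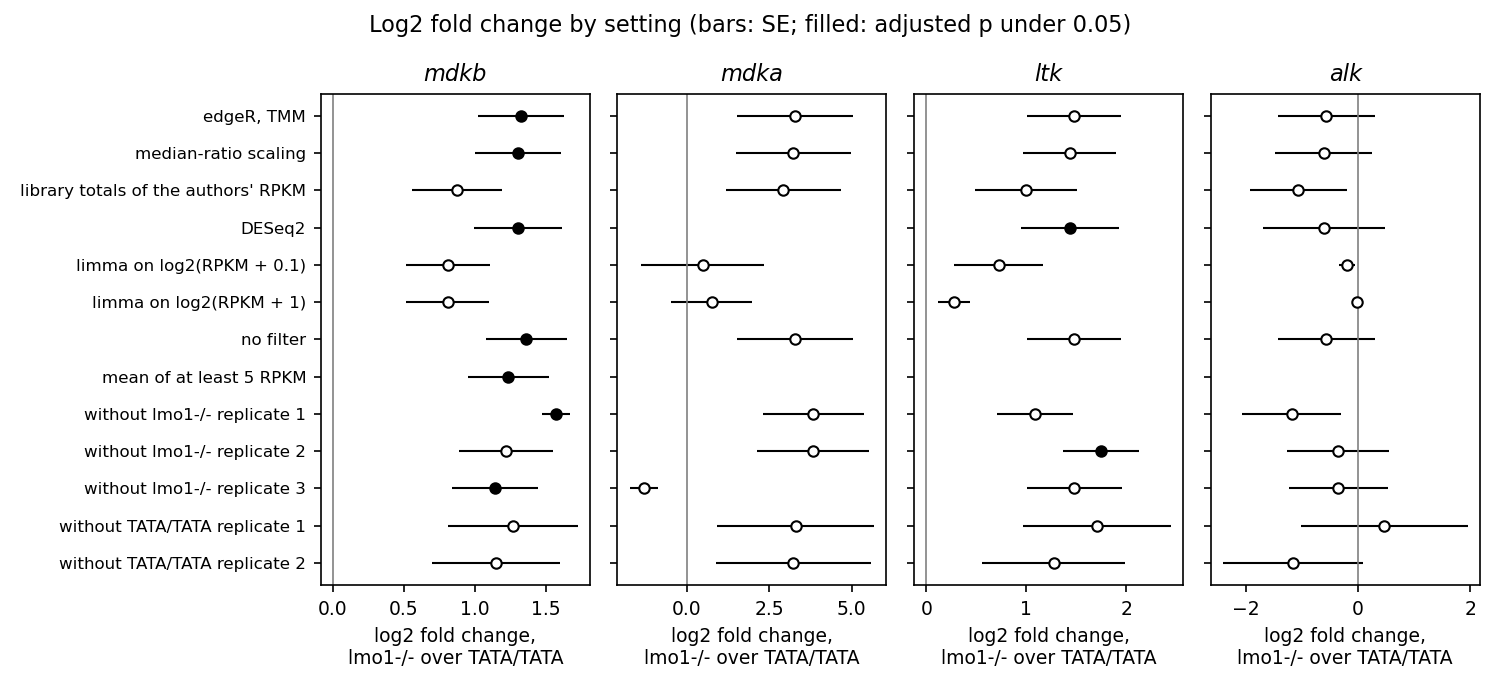
Log2 fold change, lmo1-/- over TATA/TATA, of mdkb, mdka, ltk and alk in edgeR with TMM and under the alternative settings other than the replicate block and the unadjusted threshold, with SE bars and filled points at an adjusted p under 0.05. Mdkb lies between 0.81 and 1.57 and ltk between 0.28 and 1.74, all above 0 and mdka is −1.30 without lmo1-/- replicate 3 and above 0 in its other settings shown.

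Leaving aside the replicate block and the unadjusted threshold, which are given with the limits at the end, mdkb had a positive log2 fold change in all 13 settings and passed the threshold in 7 of them, the TMM fit included. Ltk was positive in all 12 of these that gave it a value and passed in 2. Mdka was positive in 10 of 11, alk was negative in 11 of 12 and ptn was negative in all 12, and none of these 3 passed in any of these settings.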

How the data were processed

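Expression was measured by RNA-Seq in 3 lmo1-/- and 2 TATA/TATA libraries, grouped by the genotype in the sample titles. The authors aligned the reads to zebrafish genome build danRer10 (GRCz10) with HISAT2 2.1.0 and counted them per Ensembl gene name with htseq-count, on the reverse strand and within exons. The authors deposited, for each library and gene, the raw count, the exon length in bp over all isoforms and the RPKM, which divides by all reads mapped (70.9% to 76.6% of them were counted on genes). Strand-blind overlap is thus avoided, and reads of near-identical copies were counted as the authors' alignment placed them.

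Genes that reached 1 RPKM in 2 or more libraries were compared with edgeR 4.0.16 (TMM, quasi-likelihood F-test, Benjamini-Hochberg over all genes tested, R 4.3.3). TMM factors were 0.848, 0.766 and 0.963 for lmo1-/- and 1.277 and 1.252 for TATA/TATA. For members that did not, the model was fitted to every gene with a count. Libraries of 1 genotype alone can meet that level, which favours calls in the direction of that genotype. Counts on genes were 48144549 to 55782865 per library, so that 1 count on 1 kb is 0.0129 to 0.0156 RPKM. A value of 0 was given a floor of 3 counts per library. With 3 libraries against 2, an exact permutation test cannot go below p = 0.1, and none was used.

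Alternatives were median-ratio scaling, the authors' library totals, DESeq2 1.42.0, limma 3.58.1 on log2(RPKM + 0.1) and log2(RPKM + 1), no filter, a mean of at least 5 RPKM, the replicate number as a block, the study's rule (unadjusted p under 0.05 and a log2 fold change beyond 0.45 in either direction), and each library left out. The scripts were tested on simulated data. Genes named were the 5 members, in each pathway list up to 3 per direction of largest change and the most highly expressed, the most abundant macrophage marker, the 3 genes nearest to mdkb in pattern, and lmo1, dbh and th; other markers beside a result, and the genes nearest to mdka, were added after the values were seen. A gene that this rule names is not reported here. The members and lists were chosen with earlier results of these data known. Sequences and coordinates are not given, since no genome of the files' build was used here. Gene order and the current symbols alkal1, alkal2a and alkal2b come from RefSeq (GRCz12tu).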

Additional observations from a re-analysis of the deposited data

How the results depend on the processing

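Depth limits alk (5 to 33 counts a library) and ptn (0 to 12 counts), and alk also varied between the TATA/TATA libraries beyond counting error. The lone TATA/TATA library of the fits that leave out the other is assumed to vary like the lmo1-/- libraries. Mdkb did not pass with the authors' library totals (0.88, edgeR adjusted p = 0.0718), on log2(RPKM + 0.1) (0.81, limma adjusted p = 0.0699) or on log2(RPKM + 1) (0.81, limma adjusted p = 0.0671), and with a library left out it ranged from 1.14 to 1.57. Its adjusted p ranged from 0.00012 (DESeq2) to 0.213 (edgeR without TATA/TATA replicate 2). Ltk passed with DESeq2 (1.43, adjusted p = 0.0123) and under the rule of an unadjusted p under 0.05 (1.47). Mdkb passed under that rule too (1.33, edgeR unadjusted p = 0.00445). Ptn passed under the unadjusted rule (fitted −5.51) but not with DESeq2 (−4.65, adjusted p = 0.284). With a library left out, ltk ranged from 1.09 to 1.74, ptn from −6.17 to −3.64, alk from −1.18 to 0.47 and mdka from −1.30 to 3.84. The signs of alkal1 and mdka turned without lmo1-/- replicate 3 (−0.77 and −1.30), and that of insra turned with the authors' totals (−0.19) and with limma (−0.22 and −0.18). Ncl, near 0, was 0.021 without a filter and −0.17 to 0.076 with a library left out, and alkal1 was −0.77 to 5.54 with a library left out. DESeq2 gave no p for mdka, whose counts it set aside as outlying, and the mean of at least 5 RPKM left out alk, ltk, mdka and ptn. The cause of these shifts was not tested beyond the settings named.

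Calls over all genes numbered 1828 (960 higher and 868 lower in lmo1-/-) with a mean of at least 5 RPKM, where fewer genes were tested. Genes called higher numbered 869 with the authors' totals, 906 on log2(RPKM + 0.1) and 941 on log2(RPKM + 1), and genes called lower in the limma fits 4308 and 4581. With a library left out, all calls ranged from 512 to 6452, those higher from 192 to 3098 and those lower from 320 to 3354. At a mean of at least 5 RPKM, 3 midkine and pleiotrophin receptors, 0 RAS-MAPK genes and 2 genes each of the PI3K-AKT, MAPK output and receptor tyrosine kinase lists passed. Both limma fits called 5 RAS-MAPK and 7 PI3K-AKT genes, and the unadjusted threshold called 4 RAS-MAPK genes. With an lmo1-/- library left out, 7 midkine and pleiotrophin receptors passed each time, and 4 to 9 adaptors. The ranges were 2 to 4 in the RAS-MAPK, 4 to 7 in the PI3K-AKT and 3 to 6 in the MAPK output list, and 11 to 12 among the receptor tyrosine kinases.

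Replicate numbers are shared by the genotypes only as numbers, since the deviations of same-numbered libraries correlated at 0.01 and −0.02. With the replicate block, in which lmo1-/- replicate 3 has no partner, 5334 genes passed, 4475 of them among the 4933 that passed without it. Lmo1-/- replicate 3 is alone in its block and adds nothing to the genotype estimate, which rests on replicates 1 and 2. With the block, mdka was −1.29 (edgeR adjusted p = 0.00169), close to its value without that library (−1.30, edgeR adjusted p = 0.0625). Its p is not read as a decrease over all libraries. Mdkb was 1.12 (edgeR adjusted p = 0.000214) and ltk was 1.39 (edgeR adjusted p = 0.0128). Alk was −0.27 (edgeR adjusted p = 0.915) and ptn was −5.37 (edgeR adjusted p = 0.373). Alkal1 was −0.60 and ncl was 0.10.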

Other observations

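Mdka and mdkb lie in matching neighbourhoods of the zebrafish genome. In the RefSeq gene order of assembly GRCz12tu, mdka stands between dgkza and chrm4a, followed by ambra1a, and mdkb stands between dgkzb and chrm4b, followed by ambra1b. The values of mdka in lmo1-/- replicate 3 were not shared by the genes beside it. Dgkza, a diacylglycerol kinase gene, was at 2.73, 2.34 and 4.01 RPKM in the lmo1-/- libraries and at 5.85 and 5.66 RPKM in the TATA/TATA libraries, and chrm4a, a muscarinic receptor gene, was at 0.144, 0.0410 and 0.0495 RPKM in the lmo1-/- libraries and at 0.0635 and 0.141 RPKM in the TATA/TATA libraries. Beside mdkb, dgkzb was at 0.0505, 0.0993 and 0.183 RPKM in the lmo1-/- libraries and at 1.02 and 1.13 RPKM in the TATA/TATA libraries, a log2 fold change of −2.84 (edgeR adjusted p = 0.00617), of the opposite sign to that of mdkb. Ambra1b had a log2 fold change of 0.24 (edgeR adjusted p = 0.548). After ptn in that order, trim35-14 had no count in the 3 lmo1-/- libraries and was at 12.1 and 13.4 RPKM in the TATA/TATA libraries. Before ptn, chrm2a was at 0, 0.0445 and 0.00780 RPKM in the lmo1-/- libraries and at 0 RPKM in both TATA/TATA libraries.

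Other genes of the pathway and marker lists were also highest in lmo1-/- replicate 3. Gch2, a pteridine synthesis gene of the xanthophore list, was at 52.8, 62.5 and 201 RPKM in the lmo1-/- libraries and at 98.3 and 105 RPKM in the TATA/TATA libraries. Etv5b was at 0.294, 0.287 and 2.34 RPKM in the lmo1-/- libraries and at 0.364 and 0.480 RPKM in the TATA/TATA libraries, and the neurotrophin receptor ntrk3a was at 0.103, 0.462 and 1.61 RPKM in the lmo1-/- libraries and at 0.245 and 0.274 RPKM in the TATA/TATA libraries. These genes were picked after their values were seen.

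The nearest patterns to that of ltk, also sought after its values were seen, included ptprk, a receptor phosphatase gene, at 6.36, 2.71 and 4.25 RPKM in the lmo1-/- libraries and at 2.56 and 2.198 RPKM in the TATA/TATA libraries. Like ltk, it was highest in lmo1-/- replicate 1 and lowest among the lmo1-/- libraries in replicate 2, which follows from that choice.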
